A study of Mus musculus with 10 samples.

Results

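Aldehyde dehydrogenases oxidize aldehydes to carboxylic acids, and alcohol dehydrogenases interconvert alcohols and aldehydes with NAD as cofactor. In the liver, the enzymes act in series on ethanol, on retinol and retinaldehyde, on fatty aldehydes and on formaldehyde. The 10 genes described here were taken by name from the 16647 genes with counts. They are *Aldh1a1*, *Aldh1a7*, *Aldh1b1*, *Aldh2*, *Aldh3a2*, *Aldh1l1*, *Aldh9a1*, *Adh1*, *Adh4* and *Adh5*. The rule that picked them names genes and uses no threshold on their values, but they were proposed with earlier results of these data known. All 10 passed the filter of at least 60 counts summed over the livers that selected the 13219 tested genes. The filter in the methods may instead mean 60 counts in every liver, and under that reading *Aldh1a1* would be called by edgeR (adjusted P = 0.0307).

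The livers were those of 10 male mice, 5 given vehicle (control) and 5 given MI-883, and the comparison asks how MI-883 affected these genes in the liver. All animals were humanized PXR-CAR-CYP3A4/3A7 mice, aged 10 to 15 weeks at the start, and all were kept on high-fat diet (HFD), for 8 weeks before and then throughout dosing. MI-883, a ligand of the human nuclear receptors CAR and PXR, was given by oral gavage at 5 mg/kg 3 times per week for 4 weeks, and controls received its vehicle of DMSO, PEG300 and corn oil. Each library came from a separate animal, and neither a chow-fed group nor mice with the murine receptors were analysed here, so the comparison is of treatment within HFD-fed humanized mice. Reads counted on genes were 24014461 to 36221514 per liver in controls (median 31734138) and 23513665 to 28349963 in treated livers (median 24581671). Depth was thus lower in the treated group by median, with overlapping ranges. *Cyp2b10*, a classical CAR target, rose from 36.5 ± 9.10 to 1019 ± 299 CPM (counts scaled to a common library size; mean ± SD, n = 5) with MI-883 (log2 fold change 4.80; edgeR, adjusted P = 3.63e-07). *Cyp2c55*, another gene that responds to these receptors, stood at 22.4 ± 2.36 CPM in controls and rose to 206 ± 32.0 CPM (log2 fold change 3.20; edgeR, adjusted P = 1.01e-08).

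With the summed filter, none of the 10 dehydrogenases had an adjusted P under 0.05 in the quasi-likelihood test of edgeR, where 1.03% of all tested genes did (0.764% higher, 0.265% lower). Among the 2475 tested genes at least as abundant as the lowest of the 10, 2.18% did. *Aldh1a1* and *Aldh1a7*, neighbouring genes for cytosolic aldehyde dehydrogenases, came nearest, with fitted levels 1.47-fold and 1.27-fold of control. For both genes, the lowest value among treated livers exceeded the highest value among controls. DESeq2, the package named in the study's methods, gave both an adjusted P under 0.05. With it 3.50% of all tested genes passed, 2.20% higher and 1.30% lower. The other 8 genes had no adjusted P under 0.05 in either test. By unadjusted P, *Aldh1a1* and *Aldh1a7* (higher) and *Aldh1b1* and *Adh4* (lower) were under 0.05, against 15.6% of all tested genes (8.09% higher, 7.49% lower). The median log2 fold change of the 10 genes was 0.01, and that of all tested genes was 0.0045. The remaining differences lay within a log2 fold change of 0.16 in either direction.

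**Figure D1:**
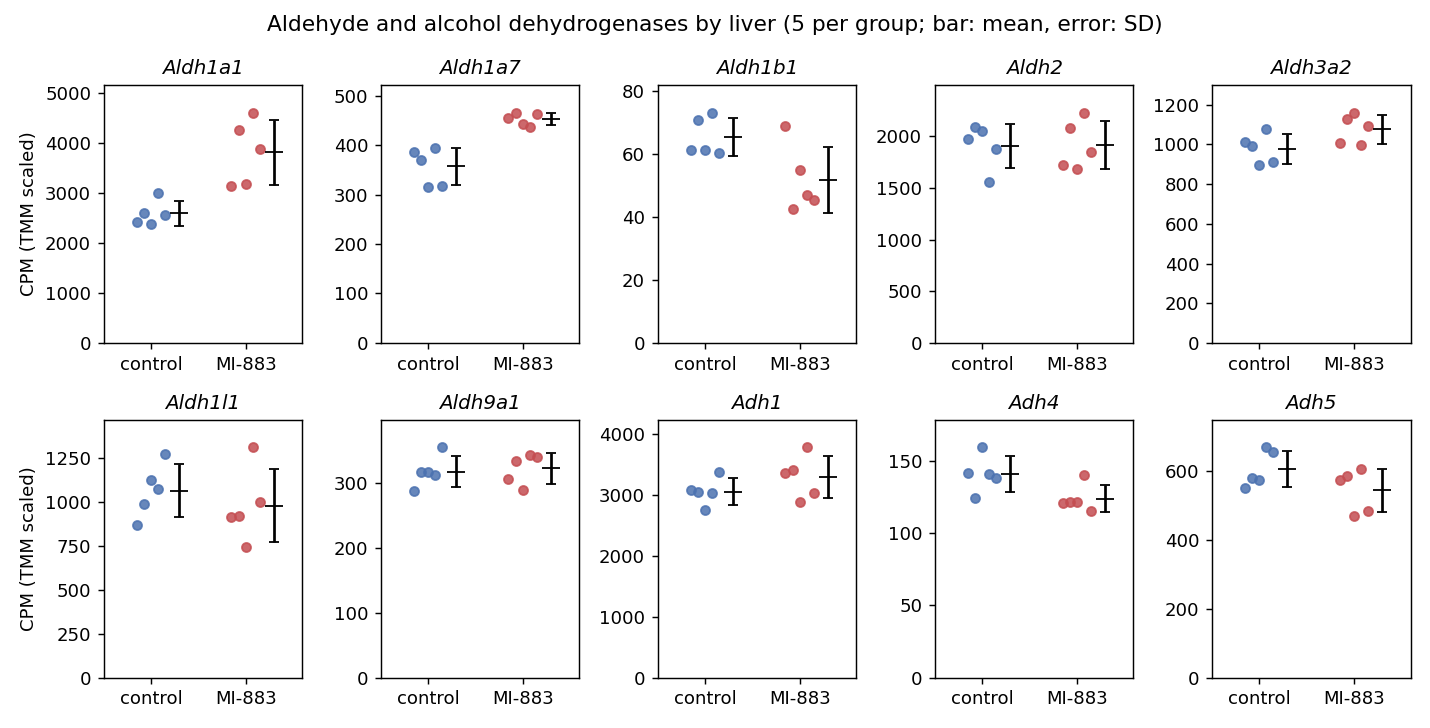
Expression of each of the 10 genes in CPM (linear axis from 0) in 5 control and 5 MI-883-treated livers, with points for livers, bars for the mean and error bars for the SD. The groups do not overlap in *Aldh1a1* and *Aldh1a7* and overlap in the other 8 genes.

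*Aldh1a1* (Entrez 11668) encodes a cytosolic retinaldehyde dehydrogenase that forms retinoic acid. It lies on chromosome 19 of GRCm38 from 20492583 to 20643463, on the plus strand. *Aldh1a7* (Entrez 26358), from 20692953 to 20727556 on the minus strand of the same chromosome, is a close rodent relative of it, and 49489 bases lie between the genes. Their longest coding transcripts were identical at 89.0% of 2042 aligned bases. Of the 100-base stretches of *Aldh1a1* transcripts, 0.0443% also occurred in *Aldh1a7*, and 0.0508% the other way round. Reads of the pair could therefore be assigned to 1 gene in nearly all positions, but reads in those few stretches are uncertain. None of the other 8 genes shared a 100-base stretch with another gene. *Aldh1a1* overlaps the annotated genes C730002L08Rik and Gm6684, *Aldh2* Gm42879, *Aldh1l1* Gm45901, Gm44236 and Gm15756, and *Adh1* Gm16559, and the strand setting of the counting is not given in the sources used here.

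The sequences directly before the transcription starts of *Aldh1a1* and *Aldh1a7* are shown because these were the members whose groups did not overlap. They are the 120 bases upstream of the start in RefSeq (GRCm38.p6), for *Aldh1a1* of the downstream start of the 2 that are listed, chr19:20601848-20601967 on the plus strand, and for *Aldh1a7* chr19:20727557-20727676 on the minus strand. Capitals mark the run of 65 bases that is the same in both, and 105 of the 120 bases are identical without gaps.
Aldh1a1: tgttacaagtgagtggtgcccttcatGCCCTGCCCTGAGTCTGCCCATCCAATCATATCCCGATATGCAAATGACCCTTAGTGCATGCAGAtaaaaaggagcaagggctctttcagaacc
Aldh1a7: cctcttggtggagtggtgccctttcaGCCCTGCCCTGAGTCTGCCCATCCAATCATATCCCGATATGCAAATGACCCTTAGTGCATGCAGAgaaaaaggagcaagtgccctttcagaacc
The shared run holds an octamer, ATGCAAAT, whose first base lies at -56 from the start in both genes, and a CCAAT box at -72. Over windows from 250 bases before to 50 bases after a start, searched on both strands, the octamer occurred in 1.74% of 32851 RefSeq promoters. Of the 10 genes, 9 had such windows, 11 in all. The octamer was found in 2 windows, the one at the downstream start of *Aldh1a1* and that of *Aldh1a7*. Both matches lie in the shared run, and the 2 genes were picked by their values. The matches are therefore not independent, and the share of all promoters does not test them. The CCAAT letters occurred in 7 of the 11 windows and in 37.4% of all promoters. The nuclear receptor core motif AGGTCA occurred in the windows of *Adh4* and *Aldh1l1* (16.3% of all promoters), and AGTTCA in none of the 11 (14.0%). No window held a direct repeat of these motifs with 3 or 4 bases between them or an everted repeat with 6, arrangements present in 0.0122%, 0.0274% and 0.00913% of all promoters. TGACNNNGC, the core of the antioxidant response element, occurred in the window of *Aldh9a1* and in 12.4% of all promoters. These are letter matches in a short window and describe neither binding nor more distant elements.

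Expression of *Aldh1a1* was 2411, 2599, 2374, 2994 and 2550 CPM in control livers 1 to 5 and 3140, 4258, 3177, 4600 and 3866 CPM in treated livers 1 to 5. The lowest treated liver thus lay above the highest control liver, and treated livers 2, 4 and 5 lay well above treated livers 1 and 3. The means were 2586 ± 247 and 3808 ± 648 CPM (SD, n = 5), with P = 0.00794 in a two-sided exact permutation test, the smallest P that 5 livers against 5 allow. The log2 fold change was 0.56 ± 0.12 (SE; 95% interval 0.29 to 0.82), with an adjusted P of 0.0514 in edgeR and 0.00033 in DESeq2. *Aldh1a1* was the gene of rank 141 by P in edgeR, where 136 genes passed. With 1 liver left out, its adjusted P in edgeR ranged from 0.0363 to 0.126, and it was under 0.05 without MI-883-treated liver 1 (0.0363) and without MI-883-treated liver 3 (0.0442).

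*Aldh1a7* stood at 387, 369, 316, 395 and 317 CPM in control livers and at 454, 466, 442, 437 and 462 CPM in treated livers. The 5 treated livers were close together, with a coefficient of variation of 2.78%, against 10.6% in controls. The means were 357 ± 37.9 and 452 ± 12.5 CPM, and the log2 fold change was 0.34 ± 0.08 (SE; 95% interval 0.17 to 0.52). The adjusted P was 0.0682 in edgeR and 0.00134 in DESeq2, and the exact permutation test gave P = 0.00794. Non-overlapping groups with higher treated livers were seen in 2 of the 10 dehydrogenases and in 2.05% of all tested genes. Counting both directions, groups did not overlap in 3.98% of all tested genes, and 1.93% had lower treated livers. *Aldh1a7* amounted to 12.4 to 16.0% of the *Aldh1a1* counts in control livers and to 9.49 to 14.5% in MI-883-treated livers. These ranges overlapped, and the log2 ratio differed by -0.20 (exact permutation test, P = 0.183, Benjamini-Hochberg adjusted over the 4 ratios tested P = 0.183).

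**Figure D2:**
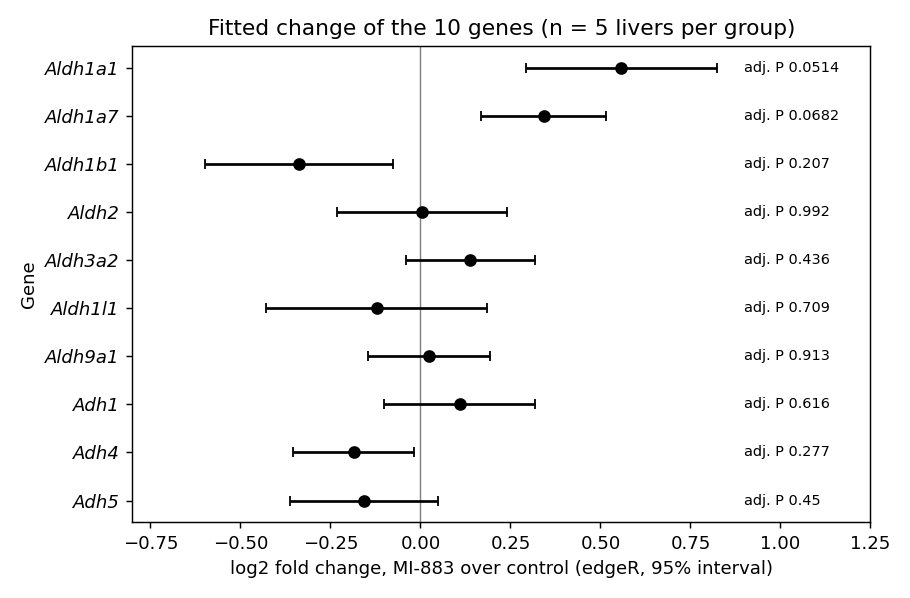
Log2 fold change of MI-883-treated over control livers for the 10 genes, fitted by edgeR (n = 5 livers per group), with 95% intervals and the adjusted P of each gene. The intervals of *Aldh1a1* and *Aldh1a7* lie above 0 and those of *Aldh1b1* and *Adh4* below 0, and no adjusted P is under 0.05.

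*Aldh2* and *Aldh1b1* encode the mitochondrial enzymes that oxidize acetaldehyde, the product of ethanol oxidation. *Aldh2* (Entrez 11669, chromosome 5, 121566027 to 121593824) ranged from 1552 to 2092 CPM in control livers and from 1687 to 2228 CPM in treated livers. The means of 1907 ± 215 and 1912 ± 233 CPM differed by a log2 fold change of 0.0038, with a 95% interval from -0.23 to 0.24 (edgeR, adjusted P = 0.992). The interval leaves room for differences of up to about 1.18-fold upward. *Aldh1b1* (Entrez 72535, chromosome 4, 45799022 to 45804608) was the lowest of the 10 genes. Its levels were 61.2, 70.7, 61.3, 73.0 and 60.2 CPM in control livers and 68.8, 42.6, 54.7, 46.9 and 45.4 CPM in treated livers. Of the treated livers, 4 lay below every control liver and liver 1 lay among the 3 highest of all 10. The log2 fold change of *Aldh1b1* was -0.34 ± 0.12 (SE; 95% interval -0.60 to -0.08), with an adjusted P of 0.207 in edgeR and 0.133 in DESeq2 and an exact permutation P of 0.0556. Without MI-883-treated liver 1 the log2 fold change was -0.46 and the adjusted P 0.0363 in edgeR. The ratio of *Aldh1b1* to *Aldh2* counts was 2.99 to 4.71% in control and 2.05 to 4.002% in MI-883-treated livers (exact permutation test, P = 0.143, adjusted P = 0.183).

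*Aldh3a2* (Entrez 11671, chromosome 11, 61223417 to 61267528) encodes the fatty aldehyde dehydrogenase of the endoplasmic reticulum and peroxisomes. It stood at 896 to 1076 CPM in controls and at 995 to 1161 CPM in treated livers, and all 5 treated livers were above the control median. Its log2 fold change was 0.14 ± 0.08 (SE; 95% interval -0.04 to 0.32, edgeR adjusted P = 0.436). *Aldh1l1* (Entrez 107747, chromosome 6, 90550768 to 90599171), the cytosolic formyltetrahydrofolate dehydrogenase, had the highest coefficient of variation of the 10 genes among treated livers (21.2%), from 745 to 1310 CPM, against 869 to 1270 CPM in controls. Its log2 fold change was -0.12 ± 0.14 (SE; 95% interval -0.43 to 0.19, edgeR adjusted P = 0.709). *Aldh9a1* (Entrez 56752, chromosome 1, 167349963 to 167368530) encodes the trimethylaminobutyraldehyde dehydrogenase of carnitine synthesis. It was 317 ± 24.3 CPM in controls and 323 ± 24.0 CPM in treated livers, with a 95% interval of the log2 fold change from -0.15 to 0.19 (edgeR adjusted P = 0.913). For these 3 genes the groups overlapped and the 95% intervals included 0, although for *Aldh3a2* the difference between the means was larger than the SD in either group.

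The 3 alcohol dehydrogenases lie in 1 cluster on the plus strand of chromosome 3. *Adh1* (Entrez 11522, 138277585 to 138290698), the class I enzyme that oxidizes ethanol and retinol, is followed after 124757 bases by *Adh4* (Entrez 26876, 138415456 to 138432683), the class II enzyme. A further 4516 bases separate *Adh4* from *Adh5* (Entrez 11532, 138437200 to 138455499), which encodes the class III enzyme, a glutathione-dependent formaldehyde dehydrogenase. Their transcripts were 63.6 to 65.5% identical to each other.

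*Adh1* was 3078, 3040, 2751, 3025 and 3379 CPM in control livers and 3362, 3408, 2887, 3780 and 3038 CPM in treated livers. The groups overlapped, and the log2 fold change was 0.11 ± 0.10 (SE; 95% interval -0.10 to 0.32, edgeR adjusted P = 0.616). *Adh5* was 552, 580, 576, 670 and 657 CPM in control livers and 576, 586, 470, 608 and 485 CPM in treated livers. Here too the groups overlapped, with a log2 fold change of -0.16 ± 0.10 (SE; 95% interval -0.36 to 0.05, edgeR adjusted P = 0.450). *Adh4* was 141, 124, 159, 141 and 138 CPM in control livers and 121, 121, 121, 140 and 115 CPM in treated livers. All 5 treated livers were below the control median, although treated liver 4 lay among the controls. The log2 fold change of *Adh4* was -0.19 ± 0.08 (SE; 95% interval -0.35 to -0.02), with an adjusted P of 0.277 in edgeR and 0.219 in DESeq2, and an exact permutation P of 0.0238. On total counts without TMM scaling, that exact P was 0.0873.

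Within each liver, the counts of *Adh5* and *Adh4* were also set against those of *Adh1*, a ratio that does not depend on how libraries are scaled. *Adh5* amounted to 17.9, 19.1, 20.9, 22.2 and 19.4% of the *Adh1* counts in control livers, and to 17.1, 17.2, 16.3, 16.1 and 16.0% in MI-883-treated livers. Every treated liver was thus below every control liver. The log2 ratio was lower by 0.27 in treated livers, -2.60 ± 0.05 against -2.33 ± 0.12 (SD, n = 5), with an exact permutation P of 0.00794 and a P of 0.0317 adjusted over the 4 ratios. *Adh4* amounted to 4.59, 4.08, 5.78, 4.66 and 4.09% of the *Adh1* counts in control livers and to 3.60, 3.56, 4.19, 3.70 and 3.80% in treated livers. Treated liver 3 overlapped the lowest control livers, and control liver 3 was the highest of all. The log2 ratio differed by -0.29 (exact permutation test, P = 0.0238, adjusted over the 4 ratios P = 0.0476). With 1 liver left out, the adjusted P of *Adh5* over *Adh1* was 0.0317 to 0.0635 and passed in 6 of 10 exact tests, not without treated liver 1, 2, 4 or 5. That of *Adh4* over *Adh1* was 0.0476 to 0.0952 and passed in 3 of 10, those without control liver 2, control liver 5 or treated liver 3. The ratios are of counts, not per length, and both adjusted calls changed with the livers included. For *Adh5* over *Adh1*, the unadjusted exact P stayed at 0.00794 to 0.0159 with 1 liver left out. After adjustment, the value of 0.0159 passed without treated liver 3 and did not pass without treated liver 1, 2, 4 or 5. With so few livers the exact P takes few values, so these losses do not show that the difference rested on single livers. The ratios concern unequal differences of the cluster's genes between the groups, not which of the genes changed.

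**Figure D3:**
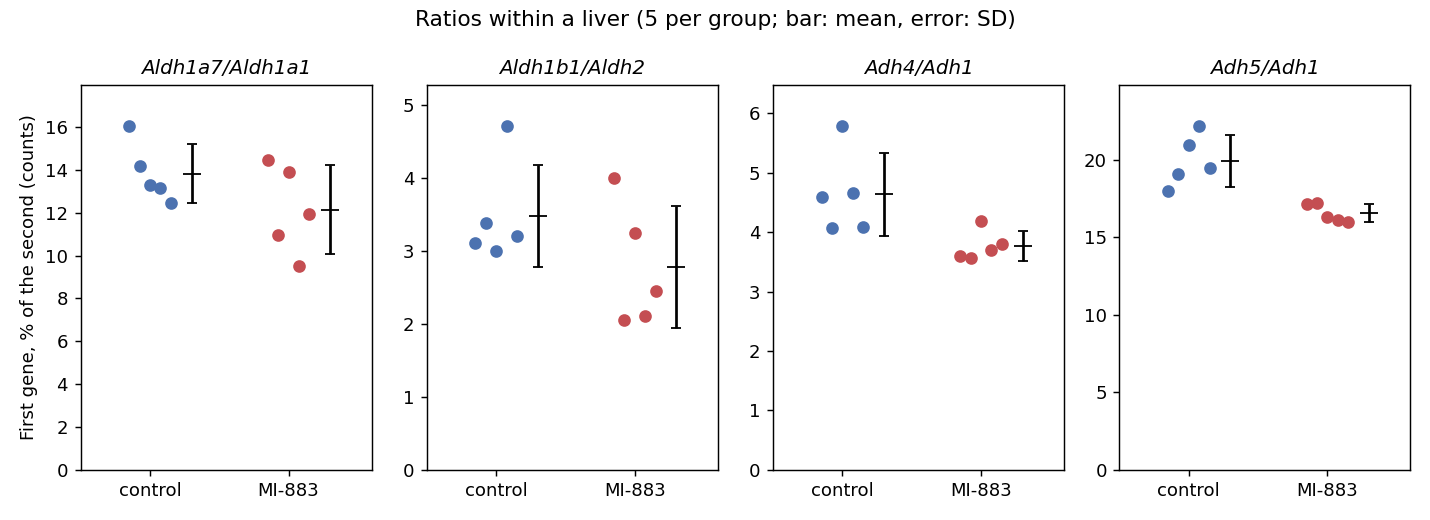
Counts of the first gene as a percentage of those of the second in the same liver, for 4 pairs of genes in 5 control and 5 MI-883-treated livers (points; bars for the mean, error bars for the SD, linear axes from 0). The groups do not overlap for *Adh5* over *Adh1*, which lies at 16.0 to 17.2% in treated and 17.9 to 22.2% in control livers.

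To compare levels between genes, CPM were divided by the length in kilobases of the longest coding transcript. In control livers the order was *Adh1* (2047 CPM per kb), *Aldh1a1* (1096), *Aldh2* (493), *Adh5* (379), *Aldh3a2* (316), *Aldh1l1* (255), *Aldh1a7* (173), *Aldh9a1* (112), *Adh4* (107) and *Aldh1b1* (28.4). The ranges over control livers overlapped between *Aldh2* and *Adh5*, *Adh5* and *Aldh3a2*, *Aldh3a2* and *Aldh1l1*, and *Aldh9a1* and *Adh4*. Both genes of a pair were counted in the same livers, so overlapping ranges cannot decide whether these neighbours differed. Their order within each liver was not tested. In MI-883-treated livers *Aldh1a1* stood at 1615 ± 275 CPM per kb, and its highest liver (1951) lay within the range of *Adh1* (1935 to 2534). *Adh5* and *Aldh3a2* changed places there, with overlapping ranges. The place of *Adh5* depended on the length used: per kb of all its annotated exons it ranked 7 of the 10 genes in control livers, in place of 4.

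**Figure D4:**
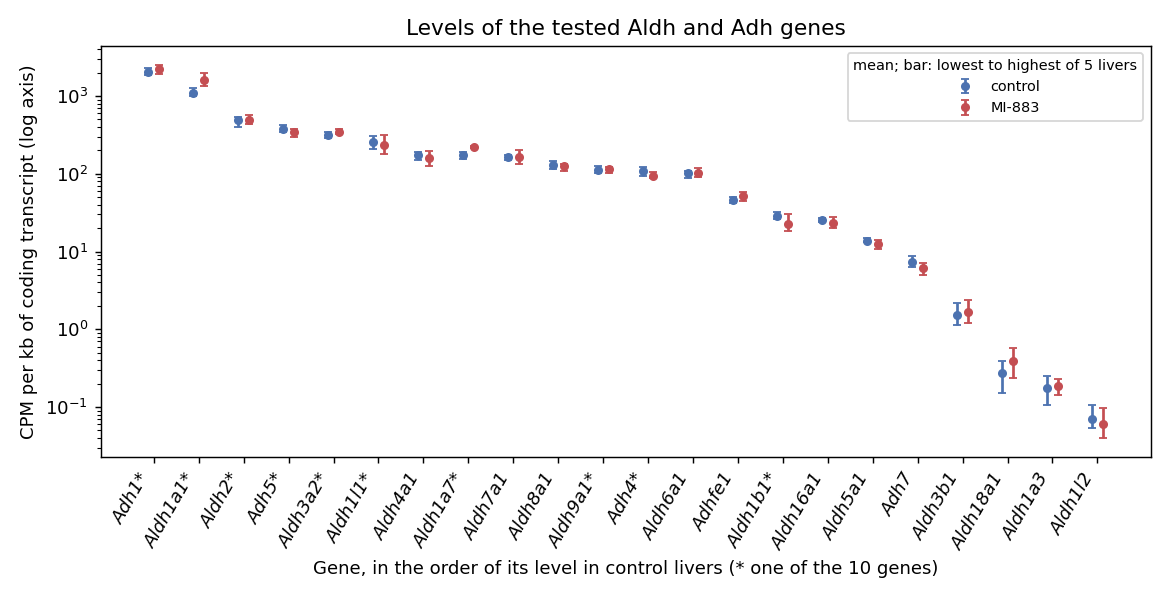
Mean CPM per kb of coding transcript (log axis) of the 22 tested genes of the aldehyde and alcohol dehydrogenase families in control and MI-883-treated livers, with bars from the lowest to the highest of 5 livers and asterisks at the 10 genes. *Adh1* and *Aldh1a1* are the highest, at 2047 and 1096 CPM per kb in control livers.

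The 10 genes together took 1.03 to 1.13% of all gene counts in control livers and 1.20 to 1.38% in MI-883-treated livers. On CPM from TMM-scaled libraries, their sum was 10624 to 11513 in control livers and 11032 to 14488 in treated livers, so that the separation seen in raw shares did not remain after scaling. Without *Aldh1a1* the sum was 8490 ± 290 CPM in controls and 8756 ± 768 CPM in treated livers. In bulk liver, fewer cells of a type and less RNA per cell cannot be told apart.

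Of 18 further genes of both families, 12 were tested, and none had an adjusted P under 0.05 in edgeR or DESeq2. Where 15.6% of all tested genes had an unadjusted P under 0.05 in edgeR, 1 of these 12 did. The highest were *Aldh7a1* (680 ± 43.0 and 686 ± 96.9 CPM in control and MI-883-treated livers), *Aldh4a1* (591 ± 49.4 and 546 ± 82.5), *Aldh6a1* (345 ± 25.9 and 344 ± 37.8) and *Aldh8a1* (292 ± 31.6 and 284 ± 23.7), enzymes of amino acid breakdown. The 6 genes below the minimum were *Aldh1a2*, *Aldh3a1*, *Aldh3b2*, *Aldh3b3*, *Adh6a* and *Adh6b*. *Aldh1a2*, another retinaldehyde dehydrogenase, had a mean of 0.125 CPM in control livers.

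Retinoid metabolism was followed with 22 genes, of which 20 were tested. In edgeR none passed, and the median log2 fold change was -0.0049. At an unadjusted P under 0.05, 2 were higher and 4 lower, against 8.09% and 7.49% of all tested genes. DESeq2 called 4 of the 20, against 3.50% of all tested genes, and these 4 are named after their values were seen. *Cyp26a1*, which degrades retinoic acid, was 25.0 ± 5.83 CPM in controls and 41.6 ± 8.90 CPM in treated livers, without overlap, at a log2 fold change of 0.73 ± 0.17 (SE; adjusted P = 0.0589 in edgeR and 0.00204 in DESeq2). *Rarb*, a retinoic acid receptor, was 6.69 ± 1.53 and 9.78 ± 1.43 CPM (log2 fold change 0.54; adjusted P = 0.129 in edgeR and 0.0335 in DESeq2). *Rdh9* and *Rdh16*, retinol dehydrogenases of the short-chain family, differed in the other direction. *Rdh9* was 99.3 ± 13.6 CPM in control and 76.9 ± 6.01 CPM in treated livers, without overlap (log2 fold change -0.37; adjusted P = 0.0914 in edgeR and 0.0164 in DESeq2). *Rdh16* was 159 ± 31.0 and 116 ± 12.7 CPM (log2 fold change -0.45; adjusted P = 0.133 in edgeR and 0.0332 in DESeq2). In edgeR, *Cyp26a1* and *Rarb* passed when control liver 1 was left out, and *Rdh16* when control liver 3 was left out. The most abundant genes of this list, *Rbp4*, the plasma retinol carrier, and *Rdh7*, had log2 fold changes of -0.17 and -0.19 and passed neither test. Their unadjusted P in edgeR was 0.151 and 0.0277. The 4 genes lower at an unadjusted P under 0.05 were *Rdh5*, *Rdh7*, *Rdh9* and *Rdh16*, whereas *Rdh10*, *Rdh11*, *Rdh13* and *Rdh14* were not under 0.05.

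The partners of these enzymes in other pathways showed no calls in edgeR or in DESeq2 on the same tested genes. Among 5 genes of ethanol and acetate oxidation, *Cyp2e1* was 9923 ± 1597 and 9449 ± 1670 CPM, *Cat*, which encodes catalase, 2632 ± 130 and 2824 ± 217 CPM, and the acetyl-CoA synthetase gene *Acss2* 182 ± 30.3 and 206 ± 42.1 CPM in control and MI-883-treated livers. The lowest adjusted P in edgeR among these 5 was 0.441. Among 7 other aldehyde-handling enzymes, *Akr1a1*, an aldehyde reductase, had a log2 fold change of 0.02, the aldehyde oxidase *Aox3* -0.09 and *Esd*, which completes the formaldehyde pathway of *Adh5*, -0.06. Of these 7 genes, 2 were higher at an unadjusted P under 0.05, against 8.09% of all tested genes. Both are named after their values were seen. The aldehyde oxidase *Aox1* was 114 ± 13.4 and 145 ± 20.6 CPM in control and treated livers (log2 fold change 0.35; adjusted P = 0.161 in edgeR and 0.0599 in DESeq2), and DESeq2 called it when 60 counts were required in every liver. The carbonyl reductase *Cbr1* was 100.4 ± 16.9 and 123 ± 17.0 CPM (log2 fold change 0.29; adjusted P = 0.282 in edgeR and 0.236 in DESeq2). Of 13 genes of folate one-carbon metabolism, in which *Aldh1l1* acts, 9 had a negative and 4 a positive log2 fold change. At an unadjusted P under 0.05 were 4 of the 13, 2 in each direction, against 8.09% of all tested genes higher and 7.49% lower. *Ftcd*, *Shmt2*, *Mthfd1* and *Shmt1*, the most abundant of the 13 genes, lay between -0.13 and 0.06.

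Since no member passed in edgeR, the genes most like *Aldh1a1* and *Aldh1a7* over the 10 livers were listed for these 2 after their values were seen. Likeness was the root mean square difference of log2 CPM, centred on the mean of each gene, among 11612 genes of at least 1 CPM. Nearest to *Aldh1a1* were *A2ml1* (0.0975), *Pdzrn3* (0.109) and *Akr1c14* (0.125). Nearest to *Aldh1a7* were *Blvrb* (0.0617), *Hprt* (0.0640) and *Ssr3* (0.0788). Of these 6 genes, *A2ml1* had an adjusted P under 0.05 in edgeR (0.0348). The 6 genes were picked by likeness over the same livers, so a similar difference between the groups was built in. That call is therefore not separate evidence.

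The tissue matched its label, since summed hepatocyte markers (*Alb*, *Ttr*, *Serpina1a*, *Tat*, *Cps1*) stood at 63161 to 73064 CPM in controls and 54794 to 66397 CPM in treated livers. Of these 5 markers, 4 had a negative log2 fold change. *Ttr* was lower without overlap (edgeR, unadjusted P = 0.0270, adjusted P = 0.257). Markers of other cells were low in comparison, with the highest sum 150 CPM, and of their 18 markers none passed in edgeR and none had a group mean of 0. At an unadjusted P under 0.05, *Sox9* (bile duct), *Cd68* (Kupffer cells and leukocytes), *Col1a1* and *Reln* (stellate cells) and *Pecam1* (endothelium) were higher. None of the 18 was lower at that P, against 8.09% of all tested genes higher and 7.49% lower. All 4 bile duct markers had a positive log2 fold change. The sums were 4.45 to 8.16 and 5.53 to 11.6 CPM for bile duct, 104 to 127 and 82.2 to 150 CPM for Kupffer cells and leukocytes, 61.9 to 96.5 and 82.0 to 99.4 CPM for stellate cells, and 84.9 to 121 and 92.5 to 132 CPM for endothelium, in control and treated livers, respectively. Of 6 periportal hepatocyte markers, 5 had a negative log2 fold change, 4 of them at an unadjusted P under 0.05 (*Hal*, *Sds*, *Gls2*, *Ass1*), and *Cdh1* a positive one of 0.93, also under 0.05 unadjusted, with a median of -0.34. *Hal*, histidine ammonia-lyase, fell from 201 ± 22.0 to 146 ± 12.8 CPM (edgeR, adjusted P = 0.0264), and the periportal sum ranged from 3307 to 6598 CPM in controls and 4083 to 5065 CPM in treated livers. The call of *Hal* was lost when any of control livers 2 to 5 or of treated livers 2, 3 and 5 was left out. Among 6 pericentral markers none passed in edgeR, whereas DESeq2 called *Glul*, glutamine synthetase, higher and *Rgn* lower, and the sum ranged from 3622 to 5037 and from 3944 to 5309 CPM. The part of these marker differences in the levels of the dehydrogenases was not tested.

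**Figure D5:**
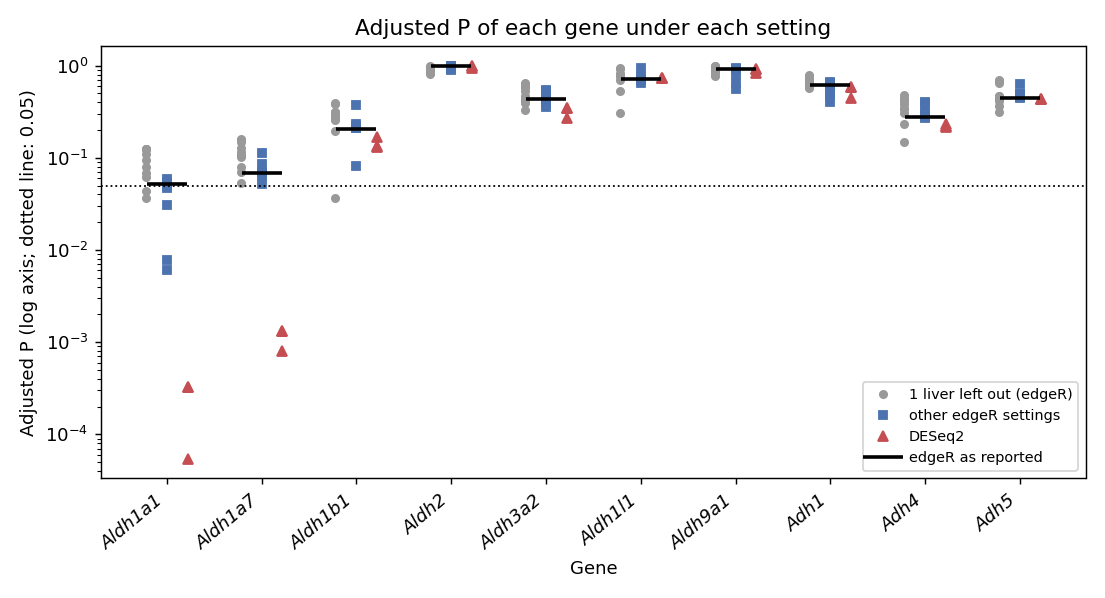
Adjusted P (log axis) of each of the 10 genes in edgeR as reported, with 1 liver left out, under other edgeR settings and in DESeq2, with a dotted line at 0.05. *Aldh1a1* falls on both sides of the line, *Aldh1a7* lies below it in DESeq2 alone, and *Aldh1b1* crosses it when MI-883-treated liver 1 is left out.

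The calls of *Aldh1a1* and *Aldh1a7* depended on the test. *Aldh1a1* had an adjusted P under 0.05 in 10 of 20 alternative fits, *Aldh1a7* in 3 of 20, all with DESeq2, *Aldh1b1* in 1 and the other 7 genes in none. The direction for *Aldh1a1* and *Aldh1a7* was higher in all of them, with log2 fold changes from 0.48 to 0.63 and from 0.30 to 0.38. The counts behind each value ranged from 962 reads for *Aldh1b1* to 110176 for *Adh1* in a liver.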

How the data were processed

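Per the study's methods and the submitters' processing notes, the authors trimmed paired-end reads of liver RNA (fastp 0.23.0), aligned them to mm10 (STAR) and obtained gene counts by featureCounts. Versions of STAR and featureCounts, the annotation and the strand setting are not given in the sources used here. The deposited values were raw counts per gene under Entrez numbers, and 16644 of 16647 were matched to RefSeq symbols (GRCm38.p6). Positions are of GRCm38, and transcripts and overlaps of GENCODE vM21.

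Livers were grouped by their labels. Genes whose counts reached 60 in sum entered the test of edgeR 4.0.16 in R 4.3.3 (TMM, quasi-likelihood, condition alone, Benjamini-Hochberg over 13219 genes, threshold 0.05). DESeq2, which the study's methods used, was run here as an alternative (1.42.0). CPM used TMM-scaled libraries, with a prior count of 0.5 before logarithms. The standard error is the log2 fold change divided by the root of F. Single genes and ratios were compared by exact two-sided permutation tests, with P unadjusted for single genes and adjusted over the 4 ratios. Alternatives were other scalings, filters, DESeq2, a replicate block, a surrogate variable (sva 3.50.0) and leaving out each liver. Scripts were tested on simulated data.

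The 10 genes and the lists were chosen with earlier results of these data known. Named were these genes, list genes passing in edgeR with up to 4 of the most abundant of each list, and *Cyp2b10* and *Cyp2c55*. Other named genes, such as list genes called by DESeq2, were chosen after their values were seen.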

Additional observations from a re-analysis of the deposited data

Results flagged for a closer look

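With 5 livers per group, 42 groups of values were examined for a liver far from the others, and 3 stood out, where chance gives about 1 in 20 groups. *Adh4* was 139.7 CPM in MI-883-treated liver 4, and the nearest treated liver was 121.2 CPM. The log2 ratio of *Aldh1b1* to *Aldh2* was -4.41 in control liver 4, and the nearest control liver was -4.89. The summed endothelial markers were 84.9 CPM in control liver 1, and the nearest control liver was 110.7 CPM.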

How the results depend on the processing

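In place of 0 of the 10 dehydrogenases, 2 were called by DESeq2, also with independent filtering (2) and with 60 counts in every sample (2), both chosen after seeing the data. With edgeR, 1 (*Aldh1a1*) was called on total counts, with 60 counts in every sample, with filterByExpr, with a surrogate variable and with the replicate block. Leaving out 1 liver gave 0 to 2. Over all tested genes, in place of 136, DESeq2 called 463, 465 and 449 in these 3 forms, the surrogate variable 227, the replicate block 89, and leaving out 1 liver 62 to 208 (208 without control liver 1, 87 or fewer without control liver 2, 3, 4 or 5 or MI-883-treated liver 2 or 5). For the pathway lists, in place of 0, the forms of DESeq2 gave 4, 4 and 5, and leaving out 1 liver 0 to 2. For the marker lists, in place of 1, DESeq2 gave 3 in each form, the replicate block 0, and leaving out 1 liver 0 to 2. The cause of these differences was not tested.

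Livers with the same replicate number did not clearly deviate together (correlations -0.12 to 0.36, none best with its own number), so no pairing by number was seen. With so few livers this check cannot exclude a pairing. Under the replicate block the differences in the log2 ratios *Adh4*/*Adh1* and *Adh5*/*Adh1* were -0.29 and -0.27 with P = 0.0625 each, the smallest P that the exact sign-flip test allows (0.125 adjusted over the 4 ratios). With 1 liver left out they ranged from -0.33 to -0.21 and from -0.30 to -0.23. The unadjusted P in exact tests was then 0.0238 to 0.0476 and 0.00794 to 0.0159. After adjustment it was 0.0476 to 0.0952 and 0.0317 to 0.0635, so that the call was lost in 7 of 10 and 4 of 10 fits. *Aldh1b1*/*Aldh2* ranged from -0.50 to -0.24. *Aldh1a7*/*Aldh1a1* ranged from -0.27 to -0.11.

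Genes near 0 turned direction. Without 1 liver, *Aldh2* ranged from -0.0613 to 0.0462 in edgeR and from -0.0690 to 0.0464 in mean log2 CPM, and *Aldh9a1* from -0.0108 to 0.0665 and from -0.0125 to 0.0642. *Aldh1l1* stood at 0.0173 with the surrogate variable. For *Adh4* the exact permutation P ranged from 0.0159 to 0.0635 without 1 liver. It was over 0.05 without control liver 1, 3 or 4 and without MI-883-treated liver 1, 2, 3 or 5.

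The precision of each difference is given by its 95% interval over 5 livers per group, and at least 962 reads per liver stood behind each of the 10 genes.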
